A study of Mus musculus with 8 samples.

Results

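The early-response feedback genes described here are 10 genes of the early response to a stimulus. Most of their products are known to restrain kinase signalling, slow the cell cycle or shorten the life of messenger RNA, while some of the others are known to act as sensors or to sustain a signal. They are the phosphatase gene Dusp1, the RNA-decay genes Zfp36 and Zfp36l1, the antiproliferative genes Btg1 and Btg2, the immediate early response genes Ier2, Ier3 and Ier5, and the stress sensors Gadd45b and Gadd45g. They were chosen by name: each symbol was looked up in the deposited table of transcript abundances (TPM, transcripts scaled to a fixed total), where every one of the 10 was found once among 52325 distinct gene identifiers. All 10 also reached 1 TPM in no fewer than 4 libraries, as did 13910 genes in all, and these were tested for a difference between genotypes.

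Chondrocytes were freed from the rib cages of single mice by collagenase, and total RNA was sequenced from 4 wild-type animals (WT) and from 4 animals in which Mir324, a microRNA gene, was deleted (Mir324-null, here null). The digestion was shared by both genotypes, no further treatment was given, and age, sex and strain are not given in the labels. Each library came from another animal, so p-values measure the spread between animals as prepared and sequenced here. Length and library total are divided out of a TPM value, so levels can be compared between genes, but the sequencing depth behind a value is unknown and no interval for counting error is given.

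Immediate early genes are transcribed within minutes of mitogen-activated protein kinase (MAPK) or nuclear factor kappa-B signalling, before any new protein is made. Part of that first wave codes for transcription factors such as FOS, JUN and EGR1, and another part codes for brakes: phosphatases that switch off the kinases and proteins that bind AU-rich elements in messenger RNA and bring in the deadenylases that shorten its tail. In cartilage the p38 and ERK branches of the MAPK network take part in chondrocyte maturation, and GADD45B is known there as an activator of p38 signalling and of the collagenase gene Mmp13.

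The libraries carried the label's cell type: 11 of 12 chondrocyte markers looked for were tested, their summed level ran from 44171 to 54399 TPM in WT and from 42772 to 55876 TPM in null, and Col2a1, the type II collagen gene, stood at 39545 ± 4309 and 37648 ± 5024 TPM (SD, n = 4 each). Mir324 itself was listed at 0 in all 8 libraries, so these data hold no check of the deletion. Of the defining macrophage markers, Adgre1, Csf1r, Ptprc, C1qa and C1qb were below 1 TPM in every library. The 3 tested markers of that list had higher means in null: Cd14 at 33.5 ± 6.40 and 49.3 ± 8.73 TPM, Itgam at 0.817 ± 0.192 and 2.72 ± 2.31 TPM, and Cd68 at 17.8 ± 3.05 and 18.7 ± 4.24 TPM (SD, n = 4 each). Without WT 4, without null 3 or with array quality weights, 2 of the 3 were higher on the log2 scale. Another entry of Itgam was not tested, at 0.873, 0.706, 0.418 and 0 TPM in WT and 0.0456, 3.19, 3.51 and 1.56 TPM in null. The erythroid list gave 5 tested markers of 6, and each of them was higher in null on the log2 scale. Without WT 2, 3 were higher and 2 lower. Without null 1, null 2 or null 4, 4 were higher and 1 lower. The list summed to between 111 and 1082 TPM in WT and between 281 and 1039 TPM in null. Ly6g of the neutrophil list and Nkg7 of the lymphocyte list were at 0 throughout. The neutrophil list gave 2 tested markers of 8, each higher in null on the log2 scale, but 1 turned lower without WT 4, without null 3 or with array quality weights. The neutrophil list's sum ran from 1.42 to 3.79 TPM in WT and from 3.05 to 6.26 TPM in null. Of the 7 lymphocyte markers 0 were tested, and their sum ran from 0.989 to 1.42 TPM in WT and from 1.55 to 3.67 TPM in null. In the endothelial list 9 of 9 tested markers were higher in null, summing to between 13.97 and 58.7 TPM in WT and between 45.0 and 68.0 TPM in null. All 8 perichondrial and fibroblast markers were tested, 4 higher and 4 lower in null. They summed to between 1654 and 4617 TPM in WT and between 1713 and 3369 TPM in null. Skeletal muscle markers (3 of 7 tested) summed to between 47.0 and 123 TPM in WT and between 62.6 and 81.8 TPM in null. Osteoblast markers (5 of 7 tested) summed to between 21.9 and 42.1 TPM in WT and between 18.3 and 29.2 TPM in null. Null replicate 3 differed from the rest: pseudogenes took 25.0% of its TPM against 17.7% to 19.1% elsewhere, ribosomal protein genes took 12.0% against 8.24% to 9.33%, and its mean Spearman correlation with the other libraries was 0.865 against 0.895 to 0.914. Members' values are therefore also given without this library. In bulk RNA, fewer cells of a type and less RNA per cell cannot be told apart.

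No feedback gene passed the threshold. With limma across all tested genes and a Benjamini-Hochberg adjusted p under 0.05, 0 of the 10 members were called, against 3 of 13910 genes in all (0.0216%). The members were not uniform: on log2(TPM + 1), 8 had a lower mean in null and 2, Ier3 and Btg1, had a higher one. In TPM the mean of Zfp36l1 was also slightly higher in null. The median log2 fold change of the members (null minus WT, on log2(TPM + 1)) was -0.22 against -0.05 over all tested genes, of which 60.1% were lower. Before adjustment 2 members, Btg2 and Ier3, had a limma p under 0.05 (background 4.15%), and they differed in opposite directions. The 4 null libraries overlapped the 4 WT libraries for each of the 10 genes (0 of 10, background 2.68%). Exons of Dusp1, Zfp36 and Zfp36l1 overlap genes annotated on the other strand (Ergic1, Gm44710 and Gm26669), and since strand use in counting is not given, reads of such partners cannot be told apart. The 95% interval lay between -1 and 1 for 8 members, the exceptions being Zfp36 and Btg2, whose intervals reached below -1.

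**Figure D1:**
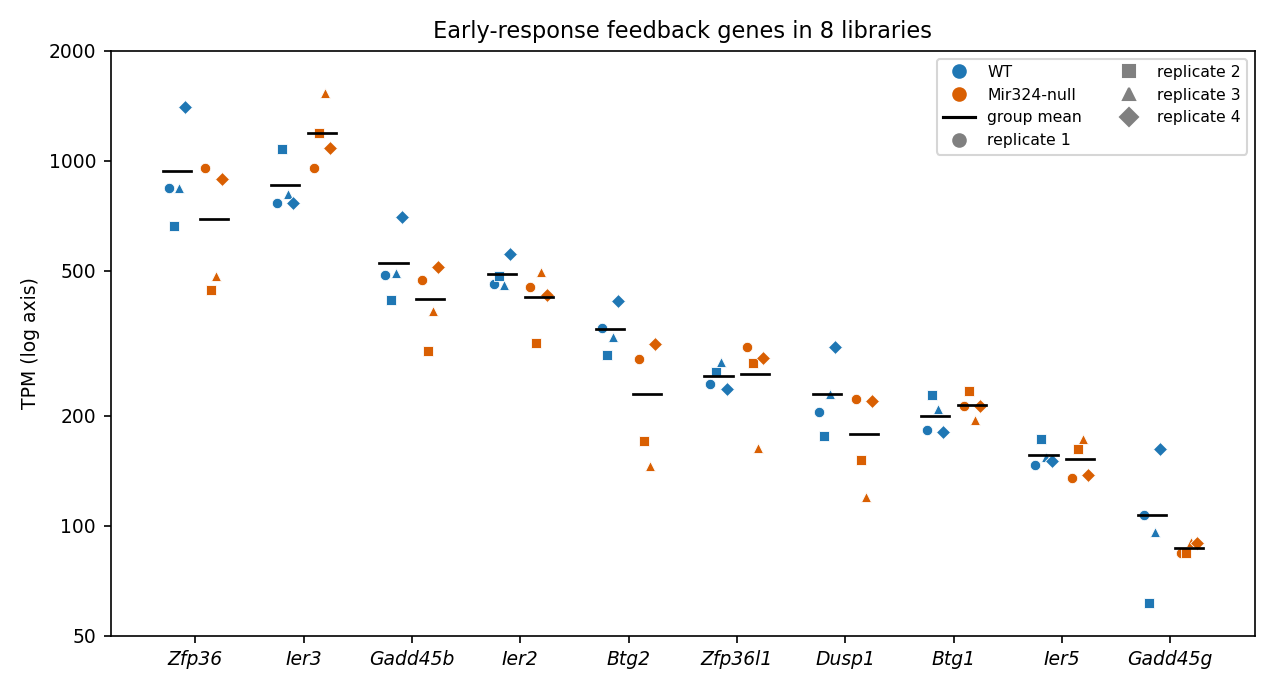
TPM (log axis) of the 10 feedback genes in each of 4 WT (blue) and 4 Mir324-null (orange) libraries, ordered by WT mean; the marker shape gives the replicate number and the black line the group mean. The points of both genotypes overlap for every gene, WT replicate 4 is the highest library for 6 genes, and Ier3 takes the top place in null.

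All 10 genes were abundant transcripts. In WT they lay between the 92.5th percentile (Gadd45g) and the 98.9th percentile (Zfp36) of tested genes, and their sum in libraries 1 to 4 was 3789, 3835, 3900.4 and 4877 TPM for WT and 4081, 3331, 3786 and 4179 TPM for null. The group means of that sum were 4100 ± 520 and 3844 ± 381 TPM (SD, n = 4 each), and the groups overlapped. The WT order of mean levels was Zfp36, Ier3, Gadd45b, Ier2, Btg2, Zfp36l1, Dusp1, Btg1, Ier5 and Gadd45g. Within that order each gene exceeded the next in all 4 WT libraries only for Ier3 over Gadd45b, Ier2 over Btg2, Btg2 over Zfp36l1 and Btg1 over Ier5; every other pair of neighbours changed places in 1 WT library. In null the order began with Ier3, Zfp36, Ier2 and Gadd45b, with Ier3 ahead of Zfp36 in 3 of 4 null libraries but in 1 of 4 WT libraries.

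Sequences are shown for the genes on which the results turn. AU-rich elements in the 3′ untranslated region, which shorten the life of a message, are the sites that ZFP36 proteins bind; the letters searched were ATTTA, the longer TATTTAT that contains it and the nonamer TTATTTATT that contains both, on the transcript strand of the longest 3′ untranslated region in GENCODE M21 (GRCm38). ATTTA was present in 7 of the 10 members (70.5% of 11314 tested protein-coding genes), TATTTAT in 5 (30.3%) and TTATTTATT in 3 (8.25%): Dusp1, Zfp36 and Zfp36l1. Zfp36 and Zfp36l1 thus hold letters of the kind known to be bound by the proteins they code for, and Ier2, Gadd45b and Gadd45g held no ATTTA. The capitals below mark a match of the greatest length in each window. The Ier3 window holds another TATTTAT, left in lower case.
Dusp1, chr17:26506158-26506187, minus strand: gagctggtccTTATTTATTtaacacccccc
Zfp36, chr7:28376950-28376979, minus strand: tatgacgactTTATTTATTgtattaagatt
Zfp36l1, chr12:80108166-80108195, minus strand: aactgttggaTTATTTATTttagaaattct
Btg2, chr1:134077248-134077277, minus strand: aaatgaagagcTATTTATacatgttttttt
Ier3, chr17:35822489-35822518, plus strand: taatatttatgTATTTATgtatatcctcct
Among the 5 genes Ier3 had the densest set, with 4 TATTTAT in 613 bases, whereas Dusp1 had 3 in 690, Zfp36 3 in 774, Zfp36l1 3 in 1835 and Btg2 1 in 2199; overlapping matches were each counted. Btg1 had the longest 3′ untranslated region (4166 bases, against a median of 1338) with 11 ATTTA and no TATTTAT.

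The mice lack Mir324, so the mature products of that gene are shown with the seed, bases 2 to 8, in capitals (RefSeq, GRCm38.p6, chromosome 11, plus strand).
mmu-miR-324-5p, chr11:70012060-70012082: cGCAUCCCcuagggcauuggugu
mmu-miR-324-3p, chr11:70012095-70012114: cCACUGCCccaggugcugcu
The letters that pair with the 5p seed, GGGATGC, occurred in the 3′ untranslated region of 1 member, Btg2 (9.37% of tested protein-coding genes), and those that pair with the 3p seed, GGCAGTG, in 0 members (17.6%). The Btg2 site lies at base 420 of its 2199-base 3′ untranslated region and is in capitals here.
Btg2, chr1:134076931-134076960, minus strand: ccgtcccagctGGGATGCctgtatgcctgg
A match of this kind is a description of the letters and no sign of binding.

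The proximal promoters are shown for 5 members, picked after the values were seen: Dusp1, Zfp36, Btg2 and Gadd45b, whose levels had high Pearson correlations with one another over the 8 libraries, and Ier3, which ran against them. RefSeq (GRCm38.p6) gave a window for 9 of the 10 members (none for Ier2), and the 250 bases before the annotated start were searched on both strands for the TATA box (TATAA), the cyclic AMP response element or CRE (TGACGTCA), its shorter form (TGACG), the AP-1 site (TGANTCA), the GC box (GGGCGG), the CArG box of serum response factor and the kappa-B site. Each window is given in transcript direction, and capitals mark TATA, CRE, shorter CRE, CArG and kappa-B letters.
Dusp1, chr17:26508473-26508722, minus strand: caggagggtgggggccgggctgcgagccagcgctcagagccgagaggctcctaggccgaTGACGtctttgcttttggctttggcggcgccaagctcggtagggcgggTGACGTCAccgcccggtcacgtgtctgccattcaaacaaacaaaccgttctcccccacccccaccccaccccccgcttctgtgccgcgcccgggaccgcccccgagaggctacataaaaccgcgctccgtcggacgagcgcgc
Btg2, chr1:134079156-134079405, minus strand: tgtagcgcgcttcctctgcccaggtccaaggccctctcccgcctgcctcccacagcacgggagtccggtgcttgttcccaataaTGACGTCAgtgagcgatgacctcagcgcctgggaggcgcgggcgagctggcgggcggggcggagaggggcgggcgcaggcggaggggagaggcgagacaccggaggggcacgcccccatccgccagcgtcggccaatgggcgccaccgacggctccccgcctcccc
Zfp36, chr7:28379229-28379478, minus strand: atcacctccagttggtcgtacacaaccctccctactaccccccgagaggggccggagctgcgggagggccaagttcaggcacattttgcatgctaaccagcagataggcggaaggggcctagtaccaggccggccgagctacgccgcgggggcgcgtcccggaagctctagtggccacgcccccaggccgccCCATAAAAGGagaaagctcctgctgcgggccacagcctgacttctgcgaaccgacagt
Gadd45b, chr10:80929841-80930090, plus strand: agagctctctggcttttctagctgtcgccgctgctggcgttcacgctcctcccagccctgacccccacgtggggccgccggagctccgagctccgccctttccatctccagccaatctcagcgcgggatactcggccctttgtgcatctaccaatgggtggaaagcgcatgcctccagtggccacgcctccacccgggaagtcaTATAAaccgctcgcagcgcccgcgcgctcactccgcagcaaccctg
Ier3, chr17:35821463-35821712, plus strand: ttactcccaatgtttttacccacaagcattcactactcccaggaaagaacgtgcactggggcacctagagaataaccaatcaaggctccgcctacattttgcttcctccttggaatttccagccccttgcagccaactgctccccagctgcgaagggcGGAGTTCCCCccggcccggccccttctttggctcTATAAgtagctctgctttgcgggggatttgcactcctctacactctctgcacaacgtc
The full CRE stood in Dusp1, from -143 to -136, and in Btg2, from -166 to -159, against 1.55% of all 32851 promoter windows. The CArG box stood in Zfp36 alone, from -58 to -49 (1.47% of windows), and the kappa-B site in Ier3 alone, from -92 to -83 (7.25%). TATAA was found in 6 of 9 members (22.8% of windows), among them Gadd45b, Ier3 and Btg1, and the GC box in 7 (32.7%). The shorter CRE also counted within each full CRE and was present in 3 members (17.8%), and AP-1 letters were present in Zfp36l1 (6.75%). GC box letters overlapped the kappa-B site of Ier3 and the CArG box of Zfp36. These matches describe letters in these windows and were not set against binding data.

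Dusp1 codes for a nuclear phosphatase that dephosphorylates p38, JNK and ERK, the kinases at the end of the MAPK cascades. Its span as annotated in GENCODE M21 is chr17:26505590-26562128 on the minus strand in GRCm38. That span reaches upstream beyond the RefSeq promoter window shown above, which lies inside it. In the order of replicates 1 to 4, used throughout, Dusp1 stood at 205, 176, 230.1 and 309 TPM in WT and at 222, 151, 119.5 and 220.02 TPM in null. The highest value was WT 4 and the lowest null 3, while null 1 and null 4 lay among the WT values. The means were 230.0 ± 56.9 and 178 ± 51.1 TPM (SD, n = 4 each). The log2 fold change was -0.38 (SE 0.25, 95% interval -0.95 to 0.19; limma adjusted p 0.981). Without null 3 the difference was -0.21, without WT 4 it was -0.23, and with array quality weights, which count variable libraries less, it was -0.11.

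Of the 16 other MAPK phosphatases and feedback inhibitors looked for, 15 were tested, 10 were lower and 5 higher in null, and 0 passed the threshold; their median log2 fold change, -0.04, was 0.03 after median-of-ratios scaling. Dusp4, a nuclear phosphatase of ERK, JNK and p38 and the gene with the smallest p in this list, was a low transcript whose groups did not overlap: 5.36, 4.59, 3.96 and 4.06 TPM in WT and 2.96, 3.07, 1.57 and 3.49 TPM in null. Its log2 fold change was -0.57 with a limma adjusted p of 0.981. Dusp7, an ERK phosphatase, averaged 17.2 ± 5.52 and 11.0 ± 2.65 TPM (SD, n = 4 each); its difference was -0.58 with the same limma adjusted p and overlapping groups. Dusp8 and Dusp16, which act mainly on JNK and p38, had differences of -0.87 and -0.69 and adjusted p of 0.981 in the same limma fit, with overlapping groups. Dusp5, a nuclear ERK phosphatase, was close to level at 42.1 ± 2.06 and 41.7 ± 3.46 TPM (SD, n = 4 each). The kinases above these phosphatases gave 14 lower and 5 higher of 19 tested of 21 listed, with 0 called and a median of -0.09 that was 0.02 without null 3; Mapk14, which codes for p38 alpha, stood at 13.2 ± 1.70 and 11.0 ± 1.93 TPM.

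Zfp36 codes for tristetraprolin, which binds AU-rich elements and recruits the CCR4-NOT deadenylase, and it was the most abundant member in WT. The gene lies at chr7:28376784-28380253 on the minus strand. Zfp36 stood at 844, 664, 839 and 1403 TPM in WT and at 956, 443, 482 and 891 TPM in null. Null 2 and null 3 were below every WT library, whereas null 1 and null 4 exceeded 3 of the 4 WT libraries. The means were 938 ± 322 and 693 ± 268 TPM (SD, n = 4 each), and the log2 fold change was -0.46 (SE 0.32, 95% interval -1.20 to 0.27; limma adjusted p 0.981). Leaving out WT 4 gave -0.25 and leaving out null 3 gave -0.32, and array quality weights gave -0.10.

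Zfp36l1, the paralogue that binds the same elements, did not follow Zfp36. It lies at chr12:80107754-80113013 on the minus strand. Zfp36l1 stood at 244, 263, 281 and 238 TPM in WT and at 309, 279, 164 and 287 TPM in null. A single library, null 3, was low, and null 1 and null 4 were above every WT library. The means were 256 ± 19.7 and 260 ± 65.2 TPM (SD, n = 4 each), the log2 fold change was -0.02 (SE 0.20, 95% interval -0.48 to 0.44; limma adjusted p 0.998), and its sign turned to 0.19 without null 3, 0.05 after median-of-ratios scaling and 0.02 after rescaling to protein-coding genes. Zfp36 exceeded Zfp36l1 in every library, by a ratio of 3.46, 2.52, 2.99 and 5.91 in WT and 3.10, 1.59, 2.94 and 3.10 in null. The other family members were Zfp36l2, at 41.7 ± 3.55 and 40.0 ± 2.54 TPM, and Zfp36l3, listed at 0 in all libraries.

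The machinery and the reported targets of ZFP36 were counted from lists. Of 21 deadenylation and decapping genes, all tested, 12 were lower and 9 higher with 0 called and a median of -0.06, which was 0.10 without null 3. Cnot10 and Cnot3, subunits of the CCR4-NOT complex with the smallest p in the list, went opposite ways. Cnot10 stood at 15.0 ± 1.12 and 12.5 ± 1.64 TPM (SD, n = 4 each), with overlapping groups and a log2 fold change of -0.25 (limma adjusted p 0.981). Cnot3 was at 14.24, 14.08, 14.02 and 10.94 TPM in WT and 15.68, 14.95, 17.50 and 15.14 TPM in null; these groups did not overlap, and the log2 fold change was 0.24 with a limma adjusted p of 0.981. Of 13 transcripts reported as ZFP36 targets, 10 were tested, 6 were lower and 4 higher, and 0 were called. Tnf, the classic target, stood at 7.86, 4.55, 6.34 and 8.40 TPM in WT and 4.36, 4.17, 4.32 and 4.43 TPM in null, so that the groups did not overlap (log2 fold change -0.52; limma adjusted p 0.981). Il6 and Csf2, cytokine genes with AU-rich elements, had higher means in null, at 30.4 ± 5.30 against 23.1 ± 7.34 TPM and 41.9 ± 17.2 against 29.7 ± 5.50 TPM (SD, n = 4 each), also with limma adjusted p of 0.981.

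Btg2 codes for an antiproliferative protein that binds the CAF1 deadenylase and is a known p53 target. It lies at chr1:134075170-134079120 on the minus strand. Btg2 stood at 347, 293, 329 and 412 TPM in WT and at 287, 170.3, 146 and 315 TPM in null. Of the null libraries, 3 of 4 lay below the lowest WT library, the exception being null 4. The means were 345 ± 49.98 and 229 ± 83.9 TPM (SD, n = 4 each), the lowest log2 fold change among the members at -0.65 (SE 0.26, 95% interval -1.25 to -0.06), with an unadjusted limma p of 0.0357 and an adjusted p of 0.981. Without null 3 the difference was -0.46, and with array quality weights it was -0.32.

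Btg1, the close relative of Btg2 with the same CAF1-binding role, was 1 of the 2 members with a higher mean log2(TPM + 1) in null. It lies at chr10:96617006-96622809 on the plus strand. Btg1 stood at 183, 228, 209 and 180.5 TPM in WT and at 213, 235, 194 and 213 TPM in null. The groups overlapped widely, and the spread was small in both. The means were 199.99 ± 22.6 and 214 ± 16.5 TPM (SD, n = 4 each), with a log2 fold change of 0.10 (SE 0.12, 95% interval -0.17 to 0.37; limma adjusted p 0.981), which was 0.14 without null 3. Btg2 exceeded Btg1 in all 4 WT libraries, by a ratio of 1.90, 1.29, 1.57 and 2.28, but in 2 of 4 null libraries, where the ratios were 1.35, 0.726, 0.750 and 1.48. In the wider BTG/TOB family Btg3 and Tob2 had log2 fold changes of 0.05 and -0.05, Tob1 had -0.26 at 129 ± 9.11 and 109 ± 18.7 TPM, and Btg4 stayed under 1 TPM throughout. Of 15 tested p53 target genes, of 15 listed, 13 were lower and 2 higher with 0 called and a median of -0.12; the proapoptotic genes Bbc3 and Bax had the smallest p, with differences of -0.41 and -0.45 and limma adjusted p of 0.981.

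**Figure D2:**
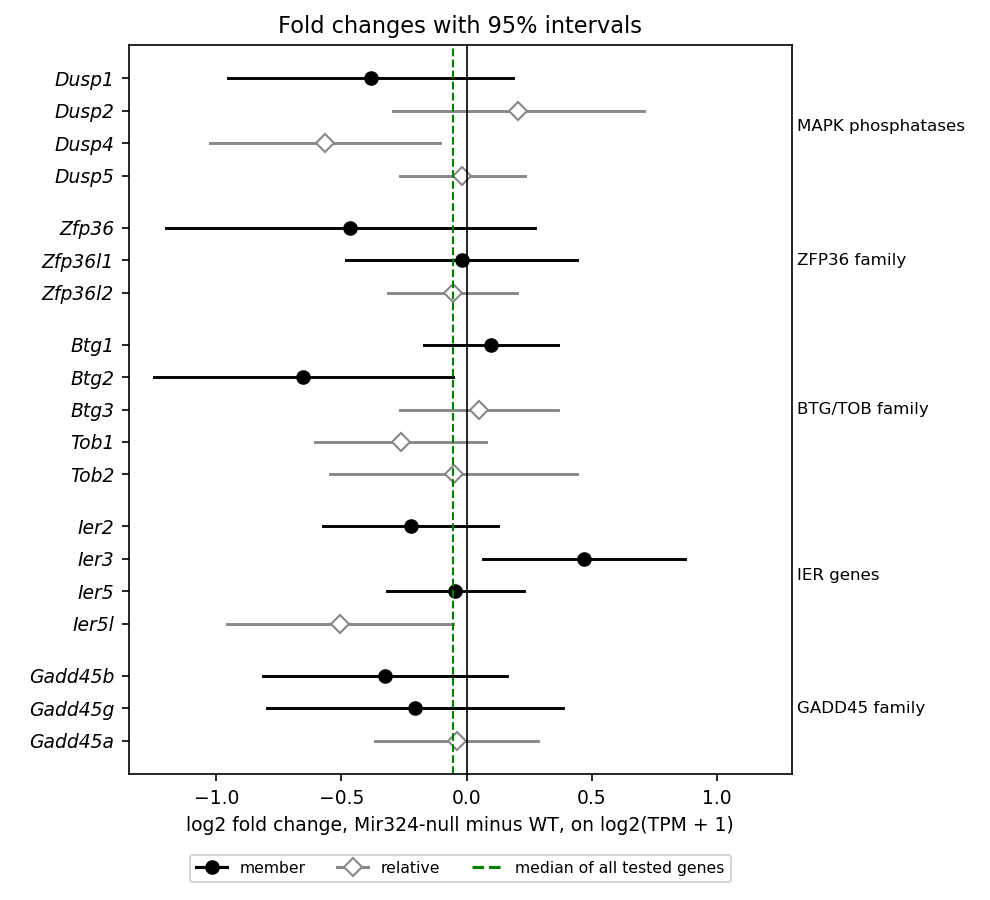
Log2 fold change (null minus WT, on log2(TPM + 1)) with its 95% interval for the 10 members (filled circles) and relatives of the same families (open diamonds), grouped by family; the dashed line is the median of all tested genes, -0.05. Within the BTG, ZFP36 and IER families the estimates lie on different sides of that line or apart from each other, from -0.65 for Btg2 to 0.47 for Ier3.

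Ier3 codes for a small protein reported to prolong ERK signalling by acting on a PP2A phosphatase and to modulate cell survival. It lies at chr17:35821684-35822923 on the plus strand. Ier3 stood at 765, 1077, 812 and 768 TPM in WT and at 954, 1188, 1537 and 1085 TPM in null. The highest library was null 3, and 3 of 4 null libraries were above the highest WT library, WT 2. The means were 856 ± 149 and 1191 ± 250 TPM (SD, n = 4 each), and the log2 fold change was 0.47 (SE 0.18, 95% interval 0.06 to 0.87), with an unadjusted limma p of 0.0281 and an adjusted p of 0.981. It was 0.34 without null 3, 0.58 without WT 2 and 0.33 with array quality weights.

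Ier2 codes for a short-lived nuclear protein induced by growth factors. It lies at chr8:84661331-84662852 on the minus strand. Ier2 stood at 460.4, 484, 456 and 555 TPM in WT and at 450.5, 317, 494 and 428 TPM in null. Null 2 was the lowest library, and 3 of 4 null libraries lay below every WT library, but null 3, low for other members, was here the second highest of all 8. The means were 489 ± 45.6 and 422 ± 75.4 TPM (SD, n = 4 each), with a log2 fold change of -0.22 (SE 0.15, 95% interval -0.57 to 0.12; limma adjusted p 0.981), which was -0.31 without null 3 and -0.09 without null 2.

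Ier5, reported in human cells to activate the heat shock factor HSF1, was the steadiest of the 3 IER genes. It lies at chr1:155096361-155099636 on the minus strand. Ier5 stood at 147, 173, 154 and 150.1 TPM in WT and at 135, 162, 173 and 138 TPM in null. The ranges overlapped, but null 1 and null 4 lay below every WT library. The means were 156 ± 11.8 and 152 ± 18.3 TPM (SD, n = 4 each). The log2 fold change was -0.04 (SE 0.12, 95% interval -0.32 to 0.23; limma adjusted p 0.987) and 0.03 after median-of-ratios scaling, -0.11 without null 3 and -0.14 with array quality weights. Its low relative Ier5l was at 5.63 ± 1.18 and 3.69 ± 0.892 TPM, and its log2 fold change was -0.50 (limma adjusted p 0.981).

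Set against the other members of the same library, Ier3 took a larger share in most null libraries than in most WT libraries. Ier3 made up 20.2%, 28.1%, 20.8% and 15.7% of the members' summed TPM in WT and 23.4%, 35.7%, 40.6% and 26.0% in null. The ratio of Ier3 to Ier2 was 1.66, 2.23, 1.78 and 1.38 in WT and 2.12, 3.74, 3.11 and 2.54 in null, which overlapped only through WT 2 and null 1. The ratio of Ier3 to Btg2 ran from 1.86 to 3.68 in WT and from 3.33 to 10.5 in null, and the highest was again null 3. These ratios were chosen after the values were seen and were not tested.

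**Figure D3:**
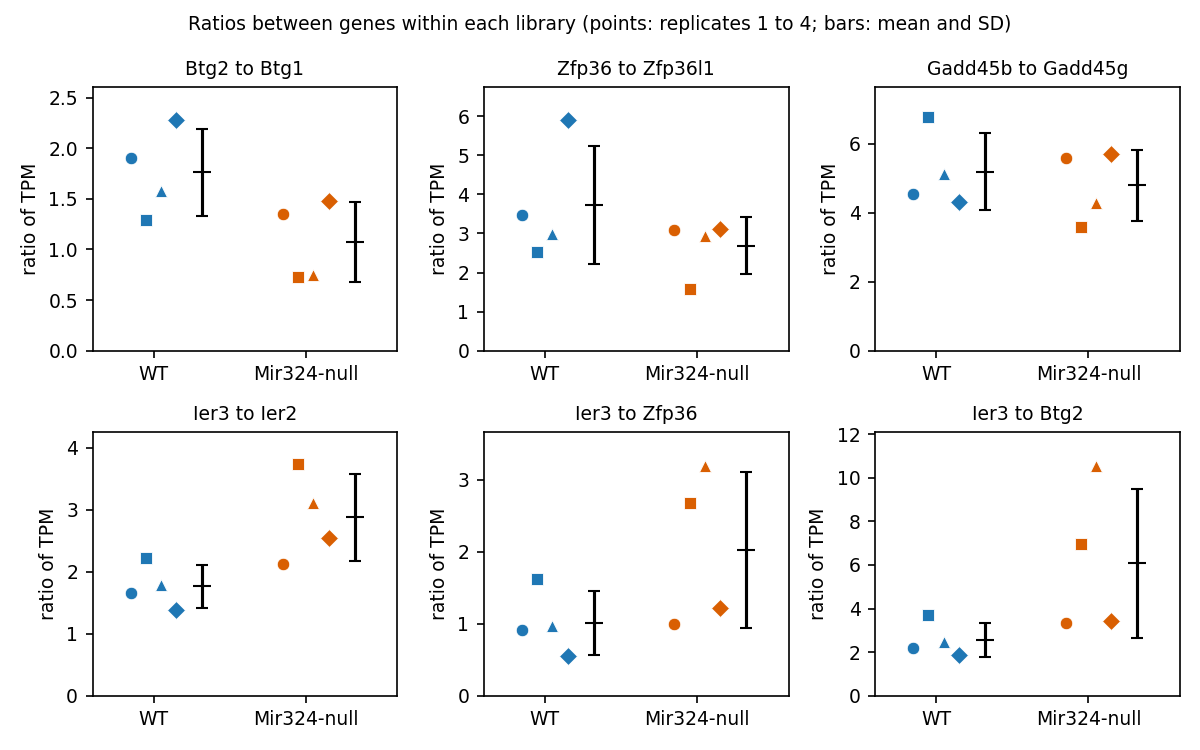
Ratios of TPM between pairs of feedback genes in each library (linear axis from 0), with WT in blue, Mir324-null in orange, the marker shape giving the replicate, and bars for the mean and SD of 4 libraries. The Btg2 to Btg1 ratio averages 1.76 in WT and 1.076 in null and the Ier3 to Ier2 ratio 1.76 and 2.88, while Gadd45b to Gadd45g averages 5.19 and 4.79; all 6 ratios overlap between genotypes.

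Gadd45b and Gadd45g code for small stress sensors that bind and activate the kinase MAP3K4, which feeds p38 and JNK. Gadd45b lies at chr10:80930073-80932204 and Gadd45g at chr13:51846678-51848468, both on the plus strand. Gadd45b stood at 487, 415, 493 and 699.6 TPM in WT and at 471, 301, 387 and 512 TPM in null. WT 4 was the highest library, and null 2 and null 3 were below every WT library. The means were 524 ± 123 and 418 ± 93.4 TPM (SD, n = 4 each), with a log2 fold change of -0.33 (SE 0.21, 95% interval -0.81 to 0.16; limma adjusted p 0.981), which was -0.30 without null 3, -0.18 without WT 4 or without null 2, and -0.15 with array quality weights.

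Gadd45g stood at 107, 61.3, 96.3 and 162 TPM in WT and at 84.3, 84.3, 90.3 and 89.7 TPM in null. The difference in spread was larger than the difference in mean: the coefficient of variation was 39.2% in WT, which held both the highest and the lowest library, and 3.80% in null. The means were 107 ± 41.8 and 87.2 ± 3.32 TPM (SD, n = 4 each), with a log2 fold change of -0.21 (SE 0.26, 95% interval -0.80 to 0.38; limma adjusted p 0.981). Without null 3 the difference was -0.22, without WT 4 it was 0.02, and without WT 2 it was -0.44. Gadd45a, the third gene of the family, was at 181 ± 22.1 and 176 ± 24.9 TPM, and Gadd45b exceeded Gadd45g between 3.58 and 6.77 times over the 8 libraries.

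Some of the members varied together between animals, and others did not. WT 4 was the highest library for 6 members (Dusp1, Zfp36, Btg2, Ier2, Gadd45b and Gadd45g), and the lowest was null 2 for Zfp36, Ier2 and Gadd45b and null 3 for Dusp1, Zfp36l1 and Btg2. Over the 8 libraries Dusp1, Zfp36, Btg2 and Gadd45b correlated with one another, with Pearson r from 0.843 to 0.957 and Spearman rho from 0.667 to 0.857 in the 6 pairs. Those r ran from 0.791 to 0.945 with genotype means removed. They ran from 0.763 to 0.954 with 2 libraries left out per pair. These were the libraries farthest from the median of the pair's first gene, in the order in which the members are named at the start. The libraries left out can therefore differ between pairs. Ier3 ran the other way, with r from -0.896 to -0.694 against these 4 genes, and from -0.846 to -0.557 with genotype means removed. With 2 libraries left out in the same way, r ran from -0.813 to -0.530. Ier5 also had negative r with these 4 genes, from -0.661 (Zfp36) to -0.510 (Gadd45b), and rho from -0.762 (Zfp36) to -0.357 (Btg2). With 2 libraries left out in the same way, its r ran from -0.702 (Dusp1) to 0.004 (Btg2). With genotype means removed, its r ran from -0.927 (Btg2) to -0.701 (Gadd45b). Between Ier5 and Ier3 r was 0.516 (rho 0.429), 0.219 with 2 libraries left out and 0.936 with genotype means removed. Pairs with the remaining members went both ways. Gadd45g had r of 0.701 (rho 0.667) with Gadd45b and 0.630 (rho 0.500) with Zfp36. Ier2 had 0.756 (rho 0.238) with Gadd45b and 0.609 (rho 0.214) with Zfp36. Btg1 had r of -0.799 (rho -0.929) with Gadd45g and -0.682 with Gadd45b, and Zfp36l1 had -0.408 with Ier2. These are descriptions over 8 libraries that share preparation and total scaling, and the 4 genes were picked after the values were seen.

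**Figure D4:**
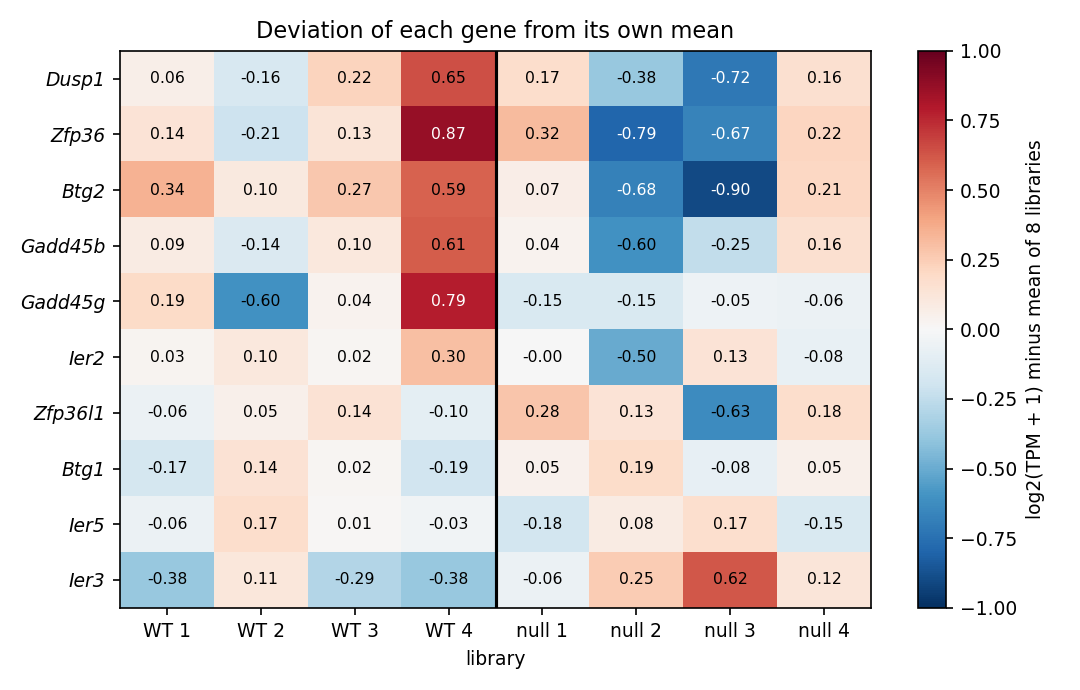
Deviation of log2(TPM + 1) from the gene's own mean over 8 libraries, for the 10 members (rows) in 4 WT and 4 Mir324-null libraries (columns); red is above and blue below the mean. WT 4 is red for most genes, null 2 and null 3 are blue for Dusp1, Zfp36, Btg2 and Gadd45b, and Ier3 shows the opposite colours, from -0.38 in WT 4 to 0.62 in null 3.

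The genes whose levels followed the members' mean most closely were sought among all tested protein-coding genes outside the set. By Pearson r with the members' mean z-score over 8 libraries they were Pwwp2b (0.992), Junb (0.969), Tm7sf3 (0.965), Ddb2 (0.965) and Washc1 (0.965). Junb, an AP-1 transcription factor gene and itself an early gene, stood at 497 ± 151 and 381 ± 90.8 TPM, whereas the other 4 had means between 2.68 and 12.6 TPM. Ddb2, a DNA-damage recognition gene, stood at 6.14 ± 0.732 and 5.26 ± 1.09 TPM (SD, n = 4 each).

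The transcription factors of the same early wave were lower in null throughout: of 22 tested, of 22 listed, 22 had a lower mean, the median log2 fold change was -0.35, and 0 passed the threshold. After median-of-ratios scaling 19 of the 22 were lower, and without null 3 the count was 20 with a median of -0.20, and with array quality weights it was 18 with a median of -0.11. Fosl1, an AP-1 factor, had groups that did not overlap, at 273, 210.4, 248 and 232 TPM in WT and 209.9, 175, 167 and 186 TPM in null (log2 fold change -0.38; limma adjusted p 0.981). Jun was at 1184 ± 283 and 722 ± 312 TPM and Atf3, a stress-induced repressor, at 2526 ± 655 and 1498 ± 646 TPM (SD, n = 4 each). Early genes were known to be lower in null from earlier results of these data, so this count gives no independent evidence of a direction. Of 16 upstream regulators tested, of 16 listed, 9 were lower and 7 higher with 0 called; Elk3, a serum response cofactor, was at 22.6 ± 5.52 and 32.1 ± 4.31 TPM, and Rela, the NF-kappa-B p65 subunit, was at 83.8 ± 5.78 and 73.3 ± 3.06 TPM with groups that did not overlap. Of 11 NF-kappa-B feedback genes, all tested, 9 were lower and 2 higher with 0 called, led by Tnfaip3, the gene of the deubiquitinase A20, at 118 ± 22.4 and 71.6 ± 24.1 TPM (log2 fold change -0.77; limma adjusted p 0.981).

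Heat shock genes, which code for chaperones, were lowest in the libraries in which Dusp1, Zfp36 and Btg2 were lowest. All 11 of 11 listed were lower in null, also after median-of-ratios scaling and without null 3, where the median of -0.74 became -0.67 and -0.60. By limma 0 were called, although 10 had an unadjusted p under 0.05 and 7 had groups that did not overlap (background 4.15% and 2.68%). The list was chosen with earlier results of these data known, so these counts give no independent evidence of a difference. Dnaja1, a chaperone of the HSP40 family, stood at 539 ± 94.0 and 289 ± 82.3 TPM, and the near-identical pair Hspa1a and Hspa1b, whose reads can be split between them, had differences of -0.84 and -0.75. Averaged over the list, log2(TPM + 1) was 10.245, 9.995, 9.835 and 10.239 in WT and 9.528, 9.174, 8.976 and 9.756 in null. The same mean for the 10 feedback genes was 8.264, 8.203, 8.312 and 8.557 in WT and 8.299, 8.001, 8.009 and 8.326 in null, low in the same libraries, null 2 and null 3, but overlapping between the genotypes. The part of the heat shock response, of cell types other than chondrocytes and of null 3 in the members' values was not tested.

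**Figure D5:**
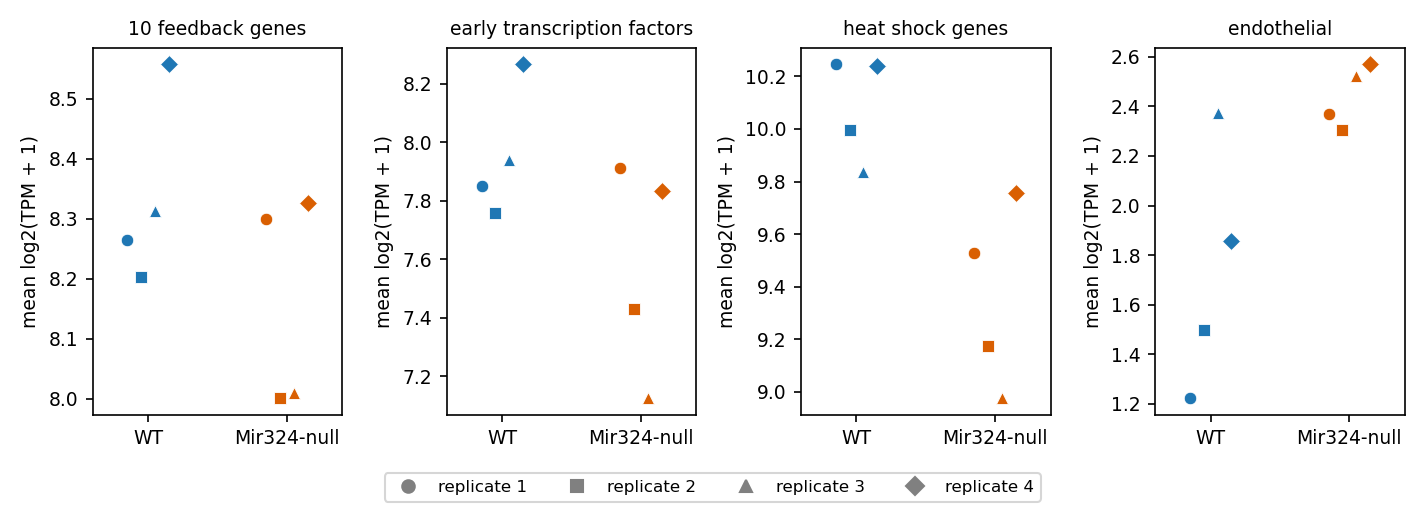
Mean log2(TPM + 1) of the 10 feedback genes, of 22 early transcription factors, of 11 heat shock genes and of 9 tested endothelial markers in each library, with WT in blue, Mir324-null in orange and the marker shape giving the replicate; each panel has its own axis, which does not start at 0. The feedback genes and early factors overlap between genotypes and are lowest in null 2 and null 3, the heat shock genes do not overlap, and the endothelial markers run from 1.22 to 2.37 in WT and from 2.30 to 2.57 in null.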

How the data were processed

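The authors deposited 1 table of length-scaled TPM for 8 libraries (4 WT, 4 Mir324-null), with no counts. It has 52865 rows and 52325 identifiers: 273 identifiers recur on 813 rows with the same values and were counted once, after which all columns have the same sum. With the recurring rows the deposited column of null replicate 3 sums highest, so its unit was entered as other but its values were used like those of the rest. Per the submitters' processing notes kallisto and DESeq2 were used, named without versions or roles, and the notes also name the human build GRCh38; the identifiers are mouse (52220 matched GENCODE M21, GRCm38), so the transcriptome behind the values is unknown; strand use and RNA selection are not given in the sources. There were 0 other per-sample columns. TPM keeps no depth, and each library's total fixes the sum, so an abundant gene's shift moves all others.

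Log2(TPM + 1) of the genes with at least 1 TPM in 4 or more libraries was fitted with limma 3.58.1 in R 4.3.3 (trended prior variance, genotype only, Benjamini-Hochberg at 0.05), after the procedure had been tested on simulated data. Fold changes on this scale understate those of low genes. Alternatives were median-of-ratios scaling, rescaling to protein-coding genes, a pseudocount of 0.1, no filter, a mean TPM filter, the replicate block, array quality weights, Xist over summed Y-linked genes as covariate, and leaving out each library. The members and gene lists were chosen with earlier results of these data known. Named genes are the 10 members, from each list the 2 to 4 genes of smallest p (fewer for some lists), the 5 genes most like the members' mean, and the markers needed to describe a list; Dusp5, Zfp36l2, Zfp36l3, Btg3, Btg4, Tob2 and Gadd45a were added as family relatives, and the genes overlapping a member by their position, with values known. Promoters and miRNAs come from RefSeq (GRCm38.p6), 3′ untranslated regions from GENCODE M21, and proteins were not used here.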

Additional observations from a re-analysis of the deposited data

Results flagged for a closer look

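The TPM of Ier3 in WT replicate 2 was 1077, while the other 3 WT libraries lay between 765 and 812; the gap between this library and the nearest other, taken over the range of the group, passed the 95% limit for 4 samples. It was the only such case among 20 groups (10 genes in 2 genotypes), and chance gives about 1 in 20. Without WT replicate 2 the log2 fold change of Ier3 was 0.58 in place of 0.47.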

How the results depend on the processing

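No member passed the limma threshold in any of the 16 alternatives, and the smallest adjusted p of a member was 0.752 (Ier3, array quality weights). Of 160 member values under these alternatives, 150 kept direction and side of the threshold and 10 reversed. Zfp36l1 reversed to 0.0511 (median-of-ratios scaling), 0.0181 (protein-coding rescaling), 0.164 (array quality weights), 0.0239 (Xist to Y-linked covariate) and ran from -0.12 to 0.19 with 1 library left out; Ier5 reversed to 0.0270 (median-of-ratios scaling) and ran from -0.11 to 0.00913; Gadd45g ran from -0.44 to 0.0199. The median member log2 fold change ran from -0.33 to -0.11 with 1 library left out. Median-of-ratios scaling moved the median of all tested genes from -0.05 to 0.00370 and left 6 of 10 members lower. The 3 calls among all genes became 0 with protein-coding rescaling, no filter, the mean TPM filter, the replicate block and the Xist to Y-linked covariate, 5 with a pseudocount of 0.1, and 2 to 7 with 1 library left out; the cause was not tested. Same-numbered deviations correlated at -0.0385, 0.114, -0.0474 and 0.108, and those of different numbers at -0.132 to 0.107. These correlations cannot settle whether the replicate numbers pair the samples. Members with an unadjusted p under 0.05 numbered 2, 3 with the block or without WT 2, 1 (Ier3) with array quality weights or the Xist to Y-linked covariate, and 0 without any 1 of WT 1, WT 3, WT 4, null 2 or null 3. Depth is unknown, and precision rests on 4 animals per genotype.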
